A study of Homo sapiens with 15 samples.

Results

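The genes described here are 36 members of glycolysis and of the response to low oxygen, chosen by their symbols from the 20468 RefSeq genes of the deposited expression tables. Every symbol was found in the tables of both cell lines. RNA was sequenced from MM.1S and RPMI8226, established human myeloma lines, after culture with or without HS5, an established line of human bone marrow stromal cells. MONO libraries come from myeloma cells grown alone. TSW libraries come from myeloma cells in the upper chamber of a transwell plate, and CO libraries from myeloma cells in the lower chamber, in contact with HS5. Both chambers of a co-culture well held myeloma cells, so TSW cells shared medium with HS5 and with CO cells. By the methods, each chamber received as many myeloma cells and as much medium as a MONO well. Co-culture wells thus differed from MONO wells in cell number, medium volume and the insert as well as in HS5. These differences cannot be told apart. Before RNA was taken, CD90-CD38+ cells were sorted, a gate meant to leave HS5 out, and the methods describe a trypsin step for co-culture. MM.1S had 3 libraries in each condition and RPMI8226 had 2, which makes 15 libraries.

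Cells break glucose down to pyruvate by glycolysis, and reduce pyruvate to lactate or carry it into mitochondria, where pyruvate dehydrogenase turns it into acetyl-CoA. When oxygen is scarce, the hydroxylases that mark HIF proteins for VHL-dependent destruction slow down, and HIF1A with its partner ARNT raises transcription of glycolytic enzymes and of other target genes. Bone marrow is poor in oxygen, and myeloma cells there lie next to stromal cells.

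Expression was deposited as log2(RPKM + 1), where RPKM counts read pairs scaled to transcript length and to the read pairs on genes of the library, and levels are given here as RPKM. Read pairs on genes ranged from 9008977 (MM.1S MONO 1) to 19050772 (MM.1S MONO 2) per library. At those depths, 1 read pair on a transcript of 2 kb equals 0.0262 to 0.0555 RPKM. Limits of this kind cover counting error and nothing else. Differences between conditions are differences of log2(RPKM + 1), written as log2 fold changes, and this scale understates changes of genes near 1 RPKM. A gene was called when its limma p, adjusted by Benjamini-Hochberg over all tested genes, was under 0.05 and its fold change was over 1.5. Tests were run on genes whose average over the libraries of a line reached 1 RPKM, 10153 in MM.1S and 10319 in RPMI8226. Of the members, 31 were tested in MM.1S (EGLN3, PFKP, PFKFB4, BNIP3 and CA9 were too low) and 34 in RPMI8226 (HK1 and CA9 were too low). The labels number the repeats without saying that they are separate cultures, so the p-values measure only the spread between these libraries. In bulk RNA, fewer cells with a transcript and less of it per cell cannot be told apart.

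Some libraries stood apart before any comparison. The ribosomal pseudogene RPS14P3 had 84.2 RPKM in MM.1S MONO 2, 94.8 in RPMI8226 TSW 1 and 93.6 in RPMI8226 TSW 2, against 2.20 to 6.44 in the other libraries. The mitochondrial tRNA gene trnN had 1.44, 2.22 and 1.53 RPKM in those same libraries, against 82.3 to 587 elsewhere. In RPMI8226 this split coincides with TSW and cannot be told apart from it. MM.1S MONO 1, the shallowest library, differed from MM.1S MONO 2 and 3 by a chi-square per gene of 47.7 and 44.02, where other replicate pairs ranged from 4.07 to 23.5.

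CO libraries carried stromal RNA. Of 36 stromal marker genes, 15 to 22 were at 0 in each MONO or TSW library and 1 to 3 in each CO library. Their summed level in MM.1S was 27.0, 29.1 and 29.7 RPKM in MONO, 17.8, 18.6 and 18.3 in TSW, and 207, 219.8 and 187 in CO. The most abundant was CAV1 in MONO and TSW, at most 17.7 RPKM, and the collagenase gene MMP1 in CO, at 44.5, 46.9 and 41.0 RPKM. RPMI8226 itself expressed the fibronectin gene FN1 (3989.7 and 4309.9 RPKM in MONO, 1678 and 1962 in TSW, 2007 and 2169 in CO), so its marker sums are given without FN1. These were 53.7 and 54.6 RPKM in MONO, 61.1 and 63.0 in TSW, and 203 and 275 in CO. MMP1 was at 0 in all MONO and TSW libraries of both lines. The part of stromal RNA in the CO values below was not tested. Of 10 plasma cell markers tested in MM.1S, limma called 3 higher in TSW and 2 in CO against MONO (6.48% and 7.13% of all genes), and 2 lower in each (4.16% and 4.65%). Of 9 in RPMI8226 it called 6 higher in each (66.7%, against 14.5% and 16.4%), and 2 lower (22.2%, near the 17.9% and 22.9% of all genes). TNFRSF17, the receptor BCMA, fell in both lines, with log2 fold changes of -1.80 in TSW and -2.14 in CO of MM.1S, and -3.50 and -3.83 in RPMI8226. JCHAIN, the joining chain of antibodies, fell in MM.1S TSW by 0.85 and rose in RPMI8226 TSW by 0.80. CD38, part of the sorting gate, rose in RPMI8226 TSW by 1.46 and was not called in MM.1S. XBP1 and PRDM1 were called higher in TSW and in CO of both lines. For XBP1 the rise was 0.87 in MM.1S TSW and 1.24 in RPMI8226 TSW.

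In MM.1S, compared with MONO, HIF1A and the aldolase gene ALDOC rose in TSW, and the HIF targets ANKRD37 and ADM fell. These made 2 members higher of 31, where 6.48% of all tested genes were called higher, and 2 lower, where 4.16% were. CO gave the same gene names, again 2 higher (7.13% of all genes) and 2 lower (4.65%). With 6.45% of the members in each direction, MM.1S counts lay near the background. In RPMI8226, 9 of 34 members rose in TSW (26.5%, against 14.5% of all genes) and 2 fell (5.88%, against 17.9%). In CO, 10 members rose (29.4%, against 16.4%) and 6 fell (17.6%, against 22.9%). The members higher in TSW and in CO include PFKFB4 and ANKRD37, which passed the filter in RPMI8226 only through the co-cultures. These higher counts are thus not independent of the filter. With both directions together, RPMI8226 members were called about as often as all genes in TSW (32.4% against 32.5%), and at 47.1% against 39.3% in CO. Median log2 fold changes of the members were 0.12 in TSW and 0.10 in CO for MM.1S, where all tested genes had 0.01 and 0.01. For RPMI8226 they were 0.06 and 0.20, where all tested genes had -0.08 and -0.09. TSW and CO of a line share their MONO libraries, so they are not independent comparisons.

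**Figure D1:**
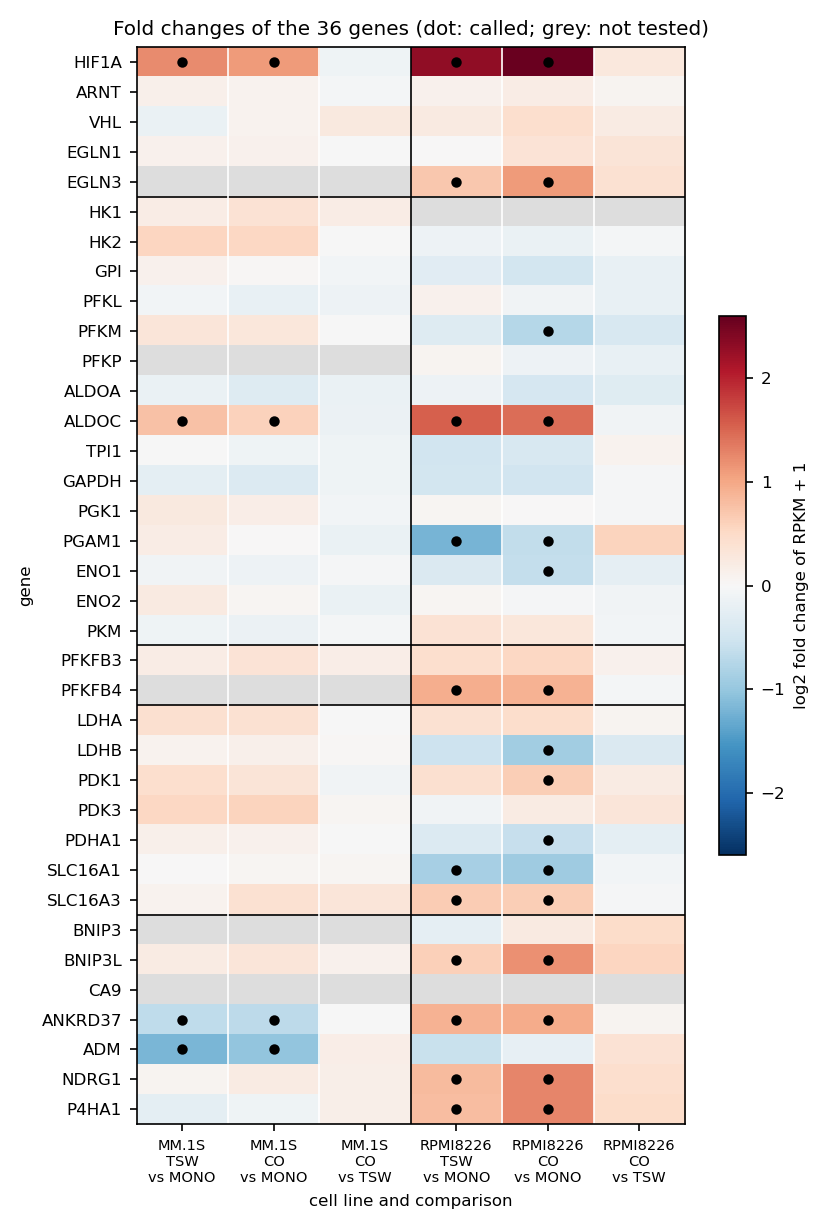
Log2 fold change of RPKM + 1 (color) for each member (rows, by role from oxygen sensing at the top to HIF targets at the bottom) in 6 comparisons (columns). Dots mark called genes and grey cells genes below the expression filter. The top row, HIF1A, was called higher against MONO in both lines, and the CO vs TSW columns hold 0 dots.

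HIF1A encodes the oxygen-regulated subunit of the transcription factor HIF-1 and lies at chr14:61695513-61748258 of GRCh38.p14. In RPMI8226 its level was 21.5 and 21.6 RPKM in MONO, 115 and 104 in TSW, and 134 and 131 in CO. In MM.1S it was 3.51, 9.87 and 10.1 in MONO, 16.4, 19.4 and 18.3 in TSW, and 16.7, 16.6 and 16.4 in CO. All co-culture libraries lay above all MONO libraries of their line. In RPMI8226 the log2 fold change was 2.30 ± 0.07 (SE) in TSW (limma adjusted p = 2.57e-09) and 2.57 ± 0.07 in CO (adjusted p = 1.04e-09). In MM.1S it was 1.22 ± 0.27 in TSW (limma adjusted p = 0.00804) and 1.11 ± 0.27 in CO (adjusted p = 0.0121). MM.1S MONO 1 is low for HIF1A, and without it these values were 0.79 and 0.68, still called. Without both MM.1S MONO 1 and 2, an alternative added after the data were seen, they were 0.78 and 0.67. Exons of 17 members overlap exons of genes on the opposite strand, and read strands are not given, so RNA of the pairs cannot be told apart. Called members among them are HIF1A (HIF1A-AS1 and HIF1A-AS3), PFKM, ALDOC, ENO1, PDK1, PDHA1, SLC16A1, SLC16A3, BNIP3L, ANKRD37 and P4HA1. HIF1A is regulated mainly through protein stability, which RNA levels do not show.

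The rest of the oxygen-sensing members were the HIF partner ARNT, the ubiquitin ligase subunit VHL and the prolyl hydroxylases EGLN1 and EGLN3. EGLN3, itself a HIF target in many cell types, rose in RPMI8226 from 1.23 and 1.36 RPKM in MONO to 2.95 and 2.495 in TSW and 3.44 and 4.45 in CO. The groups did not overlap, and the log2 fold changes were 0.69 ± 0.12 in TSW (limma adjusted p = 0.000567) and 1.10 ± 0.12 in CO (adjusted p = 1.67e-05). In MM.1S, EGLN3 stayed below the filter, with 0, 0.135 and 0.083 RPKM in MONO, 0.926, 1.06 and 1.06 in TSW, and 0.774, 0.430 and 0.637 in CO. Every TSW and CO library was above every MONO library there, though MONO 1 at 0 read pairs allows a level up to 0.122 RPKM (3 read pairs). ARNT, VHL and EGLN1 were not called in any comparison, though in RPMI8226 CO each passed the limma adjusted p (0.0427, 0.000855 and 0.00984) short of the fold threshold. Their log2 fold changes against MONO ran from -0.18 (VHL, MM.1S TSW) to 0.43 (VHL, RPMI8226 CO). Of oxygen-sensing members, limma called 1 of 4 tested higher in MM.1S (25%, against 6.48% and 7.13% of all genes) and 2 of 5 in RPMI8226 (40%, against 14.5% and 16.4%), in TSW as in CO, and 0 lower, a number that voom on the read pairs also gave.

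Among 12 other genes of the HIF system, 9 were tested in each line, and limma called 1, CITED2, higher against MONO in RPMI8226 (11.1%, below the 14.5% and 16.4% of all genes). ELOB, a subunit of the VHL ligase, was lower in RPMI8226 CO than in TSW by 0.88 ± 0.10 on the log2 scale (limma adjusted p = 0.00028). EPAS1, which encodes HIF-2 alpha, was at 1.35 to 3.29 RPKM in MM.1S libraries and 38.2 to 48.4 in RPMI8226 libraries, and was not called. CITED2, an inhibitor of HIF that competes for its coactivator EP300, rose in RPMI8226 from 42.7 and 40.9 RPKM in MONO to 85.5 and 93.3 in TSW and 116 and 119.8 in CO, with no overlap. Its log2 fold changes were 1.08 ± 0.07 (limma adjusted p = 4.77e-07) and 1.47 ± 0.07 (adjusted p = 4.02e-08). In MM.1S CITED2 had log2 fold changes of -0.06 and 0.17, and the lines differed for it by -1.14 ± 0.12 in TSW and -1.30 ± 0.12 in CO (limma adjusted p = 8.05e-06 and 1.68e-06). HIF1AN, the asparaginyl hydroxylase that blocks HIF activity, had log2 fold changes between -0.35 and -0.29 in the 4 comparisons with MONO and was not called.

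**Figure D2:**
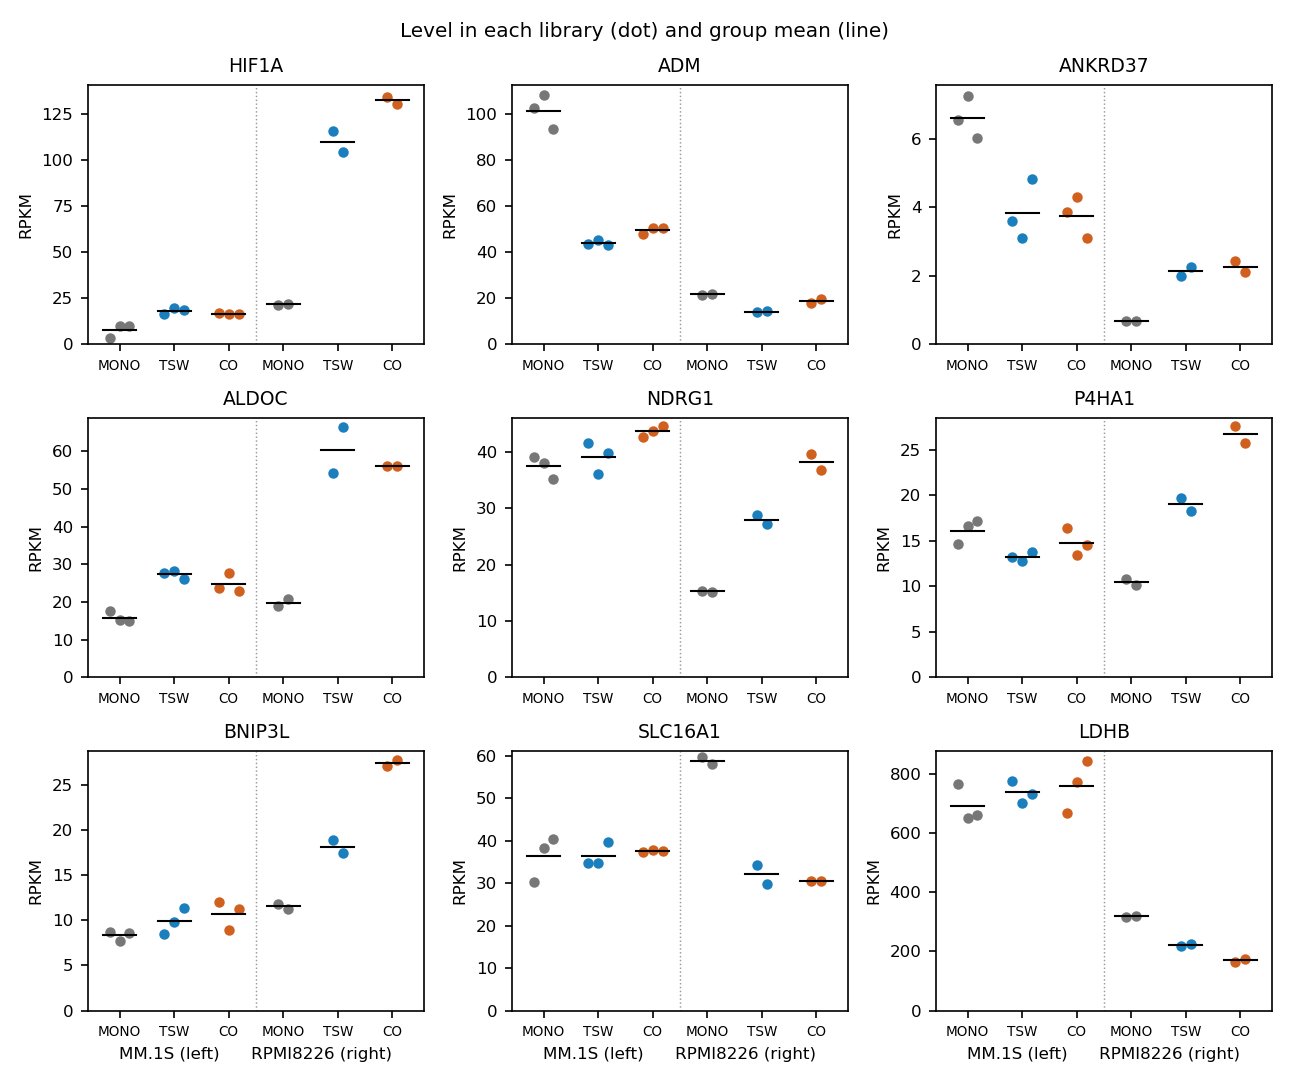
Level in RPKM (vertical axis) of 9 members in each library (dots, grey MONO, blue TSW, orange CO), with group means as lines, MM.1S on the left and RPMI8226 on the right of each panel. HIF1A in RPMI8226 went from 21.5 and 21.6 RPKM in MONO to 104 or more in TSW and CO, while ADM in MM.1S lay at 93.4 or more in MONO and 50.4 or less in the other conditions.

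Glycolytic enzymes were among the most abundant members. GAPDH, glyceraldehyde-3-phosphate dehydrogenase, ranged from 1569 to 2799 RPKM in MM.1S and from 997 to 1513 in RPMI8226. Of 14 tested enzymes in MM.1S, 1 (ALDOC) was called higher against MONO in TSW and in CO, and 0 lower by limma or by voom. That is 7.14%, at the 6.48% and 7.13% of all genes. In RPMI8226, of 14 tested, ALDOC rose and PGAM1 fell in TSW, and ALDOC rose while PFKM, PGAM1 and ENO1 fell in CO. Higher calls (7.14%) were below the 14.5% and 16.4% of all genes, and lower calls (7.14% and 21.4%) below or near 17.9% and 22.9%. Median log2 fold changes of the enzymes were 0.15 in TSW and 0.03 in CO for MM.1S, and -0.13 and -0.30 for RPMI8226. Summed over the 15 enzymes, the level of MM.1S was 5160.3 ± 745 RPKM (SD, n = 3) for MONO, 4776 ± 305 for TSW and 4489 ± 542 for CO, ranges that overlap. In RPMI8226 MONO had 5604 ± 126 (n = 2), TSW 4971 ± 416 and CO 4608 ± 112, and no MONO library lay below a co-culture one.

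ALDOC, the aldolase isoform best known from brain, rose in both lines while the major isoform ALDOA was not called. Its level in MM.1S was 17.5, 15.2 and 14.9 RPKM in MONO, 27.8, 28.3 and 26.1 in TSW, and 23.7, 27.8 and 22.8 in CO. RPMI8226 had 18.9 and 20.8 in MONO, 54.3 and 66.3 in TSW, and 56.1 and 56.2 in CO. No co-culture library fell within the range of MONO. The log2 fold change in MM.1S was 0.76 ± 0.10 in TSW (limma adjusted p = 0.00037) and 0.61 ± 0.10 in CO (adjusted p = 0.00148). The CO value sits close to the fold threshold, and the call was lost without MM.1S MONO 2 (0.58), MONO 3 (0.57) or CO 2 (0.53). In RPMI8226 the values were 1.55 ± 0.10 and 1.46 ± 0.10 (limma adjusted p = 3.12e-07 and 3.38e-07). ALDOC made 3.06% ± 0.26 (SD, n = 3) of ALDOA plus ALDOC in MM.1S MONO, 5.80% ± 0.43 in TSW and 5.87% ± 0.35 in CO. The share in RPMI8226 was 3.52% ± 0.12 (n = 2), 10.8% ± 0.47 and 12.3% ± 0.34.

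Phosphofructokinase, which commits sugar to glycolysis, is encoded by PFKL, PFKM and PFKP. PFKM, the muscle-type isoform, had 40.5 and 43.2 RPKM in RPMI8226 MONO, 31.9 and 34.0 in TSW, and 23.3 and 25.8 in CO. The 3 groups do not overlap, and PFKM fell in CO by 0.75 ± 0.08 on the log2 scale (limma adjusted p = 1.16e-05), a call lost with GC and length correction (-0.58). In MM.1S, PFKM values were 30.9 to 39.7 RPKM in MONO and 38.5 to 48.5 in co-culture, with log2 fold changes of 0.31 and 0.30 that were not called. PFKP, the platelet-type isoform, separated the lines, with 0.016 to 0.699 RPKM in MM.1S and 27.7 to 34.3 in RPMI8226. Within MM.1S, PFKP was 0.035, 0.016 and 0.023 in MONO, 0.371, 0.287 and 0.309 in TSW, and 0.639, 0.487 and 0.699 in CO, and was untested. ENO1, the main enolase, had 1349 and 1399 RPKM in RPMI8226 MONO, 1002 and 1124 in TSW, and 869.98 and 923 in CO. It changed in CO by -0.62 ± 0.07 on the log2 scale (limma adjusted p = 3.15e-05), and lost the call with median-of-ratios scaling (-0.51), quantile normalization (-0.55), GC and length correction (-0.37) or without CO 1 (-0.57).

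Hexokinase, the entry enzyme of glycolysis, was mostly HK2. HK1 was at 4.36 to 6.72 RPKM in MM.1S and was listed at 0 in both RPMI8226 MONO libraries, which allows up to 0.0479 and 0.0404 RPKM (3 read pairs). RPMI8226 TSW had 0 and 0.022 RPKM of HK1, and CO 0.391 and 0.594, where stromal markers were also present. HK2 in MM.1S was 12.8, 21.6 and 21.5 RPKM in MONO, 28.0, 27.3 and 25.9 in TSW, and 24.9, 28.5 and 27.3 in CO. MONO lay below both co-cultures, with log2 fold changes of 0.55 ± 0.17 and 0.54 ± 0.17 (limma adjusted p = 0.031 and 0.0303), short of the fold threshold. MM.1S MONO 1 was the lowest library, as for HIF1A, and both changes of HK2 were smaller without it. ENO2, the neuronal enolase, made 9.21% ± 1.43 (SD, n = 3) of both enolases in MM.1S MONO and 0.426% ± 0.0635 (n = 2) in RPMI8226 MONO. Other enzymes that passed the adjusted p but not the fold threshold in RPMI8226 CO were GPI, ALDOA, TPI1, GAPDH and PKM, with log2 fold changes of -0.48, -0.44, -0.41, -0.51 and 0.30. PKM, pyruvate kinase, had 831 and 862 RPKM in MONO, 1026 and 1168 in TSW, and 1048 and 1030.4 in CO of RPMI8226.

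PGAM1, phosphoglycerate mutase, followed the libraries that stood apart as well as the conditions. It had 95.3 and 91.1 RPKM in RPMI8226 MONO, 40.0 and 39.2 in TSW, and 59.4 and 59.2 in CO. In MM.1S it had 126, 65.2 and 103 in MONO, 111, 107 and 109.6 in TSW, and 94.6, 109 and 86.1 in CO. Its lowest MM.1S value is in MONO 2 and its lowest RPMI8226 values are in TSW, the 3 libraries rich in RPS14P3. PGAM1 fell in RPMI8226 by 1.21 ± 0.07 on the log2 scale in TSW (limma adjusted p = 1.23e-07) and by 0.64 ± 0.07 in CO (adjusted p = 8.34e-06). In CO, where RPS14P3 was 6.44 and 5.59 RPKM, the call was lost with median-of-ratios scaling (-0.54), quantile normalization (-0.53) or GC and length correction (-0.28). PGAM4, an intronless copy of PGAM1 on chromosome X, had 10.2 RPKM in MM.1S MONO 2 and 2.78 and 5.71 in the other MONO libraries. In RPMI8226 PGAM4 was 3.96 and 5.15 in MONO, 5.92 and 6.15 in TSW, and 1.86 and 1.68 in CO.

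**Figure D3:**
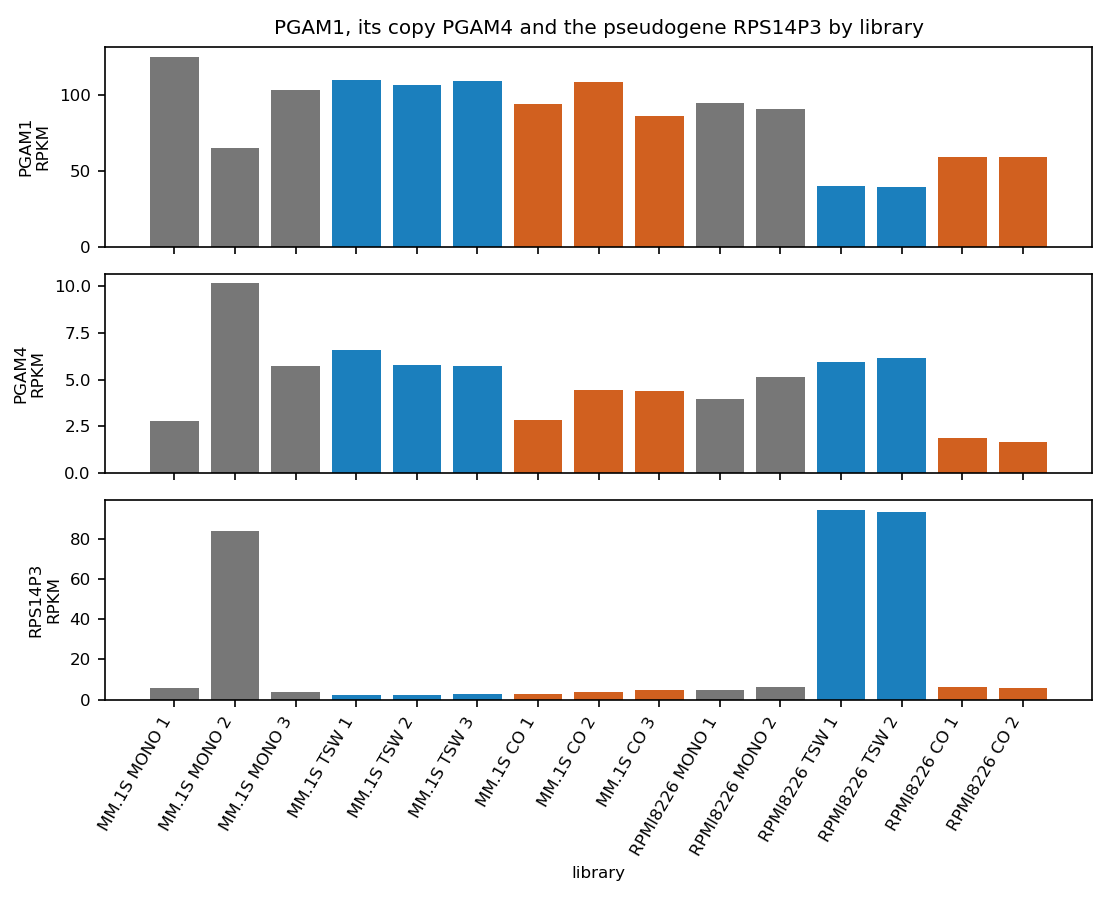
Level in RPKM (vertical axes) of PGAM1, its copy PGAM4 and the pseudogene RPS14P3 in each of the 15 libraries (bars, grey MONO, blue TSW, orange CO). PGAM1 is at 65.2, 40.0 and 39.2 RPKM in the 3 libraries with 84.2 or more RPKM of RPS14P3.

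Reads can match both PGAM genes, because their coding sequences differ at 13 of 762 bases (98.3% identity), with an identical run of 269 bases. The first 120 coding bases, from GENCODE v44, show how alike they are, with the 3 bases that differ in capitals. PGAM1 has 4 coding exons and this stretch lies at chr10:97426308-97426427 on the plus strand of GRCh38, and PGAM4 has 1 coding exon with the stretch at chrX:77969519-77969638 on the minus strand.
PGAM1: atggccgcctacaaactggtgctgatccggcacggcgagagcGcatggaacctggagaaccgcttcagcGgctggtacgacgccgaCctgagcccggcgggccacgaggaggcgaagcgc
PGAM4: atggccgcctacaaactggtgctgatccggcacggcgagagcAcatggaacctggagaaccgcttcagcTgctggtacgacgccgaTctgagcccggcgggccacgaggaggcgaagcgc
How the authors' counting treated reads that match several genes is not given in the labels, so the part of such reads in the PGAM1 values was not tested. Of the members, 17 have RefSeq pseudogenes named after them, 158 in all, with 65 for GAPDH, 46 for BNIP3 and 13 for PGAM1. The tables hold 3 of these, TPI1P2, TPI1P3 and PGAM1P5, all at 1.98 RPKM or less.

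PFKFB3 and PFKFB4 make and degrade fructose-2,6-bisphosphate, the strongest activator of phosphofructokinase. PFKFB4 rose in RPMI8226 from 0.632 and 0.728 RPKM in MONO to 2.38 and 2.14 in TSW and 1.92 and 2.37 in CO. Both MONO values lie below 1 RPKM, so PFKFB4 passed the filter only through the co-cultures, and its call is not independent of the filter. MONO did not overlap with either co-culture, and the log2 fold changes were 0.95 ± 0.11 (limma adjusted p = 3.13e-05) and 0.90 ± 0.11 (adjusted p = 3.65e-05). Since these levels are near 1 RPKM, voom on read pairs gave larger log2 fold changes, 1.71 and 1.64. PFKFB4 went from 7.72% ± 1.498 (SD, n = 2) of both PFKFB genes in MONO to 16.6% ± 1.87 in TSW and 14.7% ± 0.532 in CO. In MM.1S, where it was untested, PFKFB4 was 0.128 to 0.303 RPKM in MONO, 0.337 to 0.481 in TSW and 0.414 to 0.654 in CO. PFKFB3 was not called by limma in any comparison, with log2 fold changes against MONO between 0.19 and 0.54, and voom called it higher in RPMI8226 CO.

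The step between pyruvate and lactate changed its isoforms in RPMI8226. Lactate dehydrogenase is built from LDHA subunits, which favor lactate production, and LDHB subunits, which favor its oxidation. LDHB had 318 and 321 RPKM in RPMI8226 MONO, 218 and 224 in TSW, and 165 and 175 in CO. The groups formed 3 separate levels, and LDHB fell in CO by 0.91 ± 0.06 on the log2 scale (limma adjusted p = 5.15e-07). In TSW its value was -0.53 ± 0.06 (limma adjusted p = 3.74e-05), short of the fold threshold. LDHA had 551 and 534 RPKM in MONO, 713 and 720.2 in TSW, and 747 and 753 in CO, with log2 fold changes of 0.40 and 0.47 (limma adjusted p = 0.000203 and 5.53e-05), short of the fold threshold. LDHB thus made 37.1% ± 0.678 (SD, n = 2) of LDHA plus LDHB in MONO, 23.6% ± 0.254 in TSW and 18.5% ± 0.55 in CO, while their sum was 862 ± 10.3, 938 ± 9.44 and 919.9 ± 11.003 RPKM. The LDHB share in MM.1S was 46.3% ± 2.04 (n = 3) for MONO, 40.9% ± 0.473 for TSW and 41.8% ± 1.26 for CO. Each MM.1S MONO library lay above each co-culture library in this share too, and shares were not tested. LDHA there was 857, 712 and 844 RPKM in MONO and between 978 and 1116 in co-culture, without overlap, at log2 fold changes of 0.41 and 0.39 (limma adjusted p = 0.0296 and 0.0309).

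The lactate transporters exchanged rank in RPMI8226. SLC16A1 encodes MCT1, a carrier for lactate uptake and release, and SLC16A3 encodes MCT4, the exporter typical of glycolytic cells. SLC16A1 had 59.6 and 57.9 RPKM in MONO, 34.3 and 29.8 in TSW, and 30.6 and 30.4 in CO. SLC16A3 had 27.2 and 27.2 in MONO, 40.5 and 46.9 in TSW, and 41.1 and 44.5 in CO. SLC16A1 was the higher transporter in MONO and SLC16A3 in every co-culture library. SLC16A1 fell by 0.86 ± 0.08 on the log2 scale in TSW (limma adjusted p = 5.72e-06) and by 0.92 ± 0.08 in CO (adjusted p = 2.37e-06). SLC16A3 rose by 0.66 ± 0.08 and 0.63 ± 0.08 (limma adjusted p = 5.79e-05 and 6.2e-05), calls lost without TSW 2 (0.56) and without CO 2 (0.58). SLC16A3 made 31.7% ± 0.474 (SD, n = 2) of both in MONO, 57.7% ± 4.90 in TSW and 58.4% ± 1.49 in CO. In MM.1S it made 14.5% ± 4.51 (n = 3), 15.1% ± 1.98 and 18.01% ± 2.12, ranges that overlap, and neither transporter was called.

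**Figure D4:**
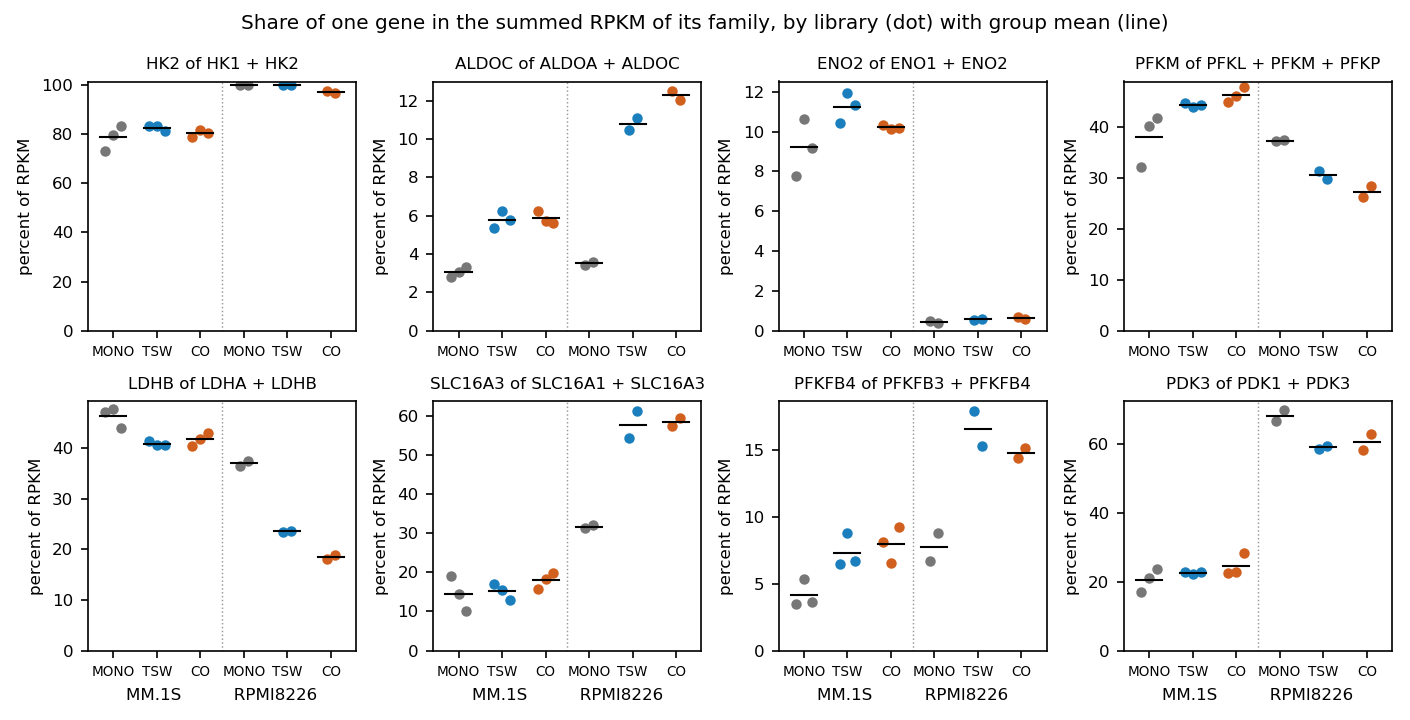
Share in percent (vertical axes) of one gene in the summed RPKM of its family, in each library (dots, grey MONO, blue TSW, orange CO) with group means as lines, MM.1S left and RPMI8226 right. In RPMI8226 the mean LDHB share went from 37.1% in MONO to 18.5% in CO and the mean SLC16A3 share from 31.7% to 58.4%.

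Inside mitochondria pyruvate is turned into acetyl-CoA by pyruvate dehydrogenase, whose E1 alpha subunit is PDHA1, and the kinases PDK1 and PDK3 switch that enzyme off. PDK1 had 5.35 and 5.30 RPKM in RPMI8226 MONO, 7.89 and 7.01 in TSW, and 8.94 and 8.64 in CO. PDHA1 had 76.4 and 74.6 in MONO, 55.9 and 61.8 in TSW, and 51.3 and 47.2 in CO. The groups of PDK1 and of PDHA1 do not overlap, and neither gene was called in TSW. PDK3, the more abundant kinase there, had 10.8 and 12.3 RPKM in MONO, 11.2 and 10.3 in TSW, and 12.6 and 14.6 in CO, and was not called. PDK1 rose in CO by 0.63 ± 0.09 (limma adjusted p = 0.000109), a call lost with GC and length correction (0.50). PDHA1 fell in CO by 0.61 ± 0.08 (limma adjusted p = 3.78e-05), a call lost with median-of-ratios scaling (-0.50), quantile normalization (-0.48), GC and length correction (-0.44) and without CO 2 (-0.55). In MM.1S, PDK1 was 14.2, 19.2 and 19.6 RPKM in MONO and 21.1 to 25.6 in co-culture, and PDK3 was 2.94, 5.08 and 6.11 in MONO and 6.23 to 8.49 in co-culture, both uncalled. Of 7 members of this group, limma called 0 in MM.1S against MONO, where 2 passed the adjusted p in each comparison and voom called PDK3 higher in CO. In RPMI8226, 1 rose and 1 fell in TSW (14.3% each, against 14.5% and 17.9% of all genes, so at or below background). In CO, 2 rose (28.6%, against 16.4%) and 3 fell (42.9%, against 22.9%).

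HIF targets among the members, where called, were higher in RPMI8226 and lower in MM.1S, though ANKRD37 alone was called in opposite directions. Of 25 other hypoxia-inducible genes tested in MM.1S, described below, 5 were higher, 1 lower and 19 uncalled in TSW. In CO, 6 were higher, 2 lower and 17 uncalled. Their shares higher were 20% and 24.0%, against 6.48% and 7.13% of all genes. Their shares lower were 4.0% and 8.0%, against 4.16% and 4.65%. BNIP3L, a mitophagy receptor, NDRG1, a stress-response protein, P4HA1, a collagen prolyl hydroxylase subunit, and ANKRD37, an ankyrin-repeat protein, rose in RPMI8226 in TSW and in CO, making 4 of 6 tested (66.7%, against 14.5% and 16.4% of all genes). ANKRD37 was below 1 RPKM in both RPMI8226 MONO libraries, and passed the filter there only through the co-cultures. In MM.1S, 2 of 5 tested fell (40%, against 4.16% and 4.65%), ANKRD37 and ADM, the gene of the vasodilator peptide adrenomedullin, and 0 rose by limma or by voom. Median log2 fold changes of the tested targets were 0.71 in TSW and 1.07 in CO for RPMI8226, and -0.26 and -0.12 for MM.1S.

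ADM had 102, 108 and 93.4 RPKM in MM.1S MONO, 43.6, 45.3 and 43.1 in TSW, and 47.7, 50.3 and 50.4 in CO. Every MONO library was above every co-culture library by a wide margin. ADM fell by 1.18 ± 0.08 on the log2 scale in TSW (limma adjusted p = 3.50e-06) and by 1.02 ± 0.08 in CO (adjusted p = 9.50e-06). In RPMI8226, ADM was lower in level, with 21.3 and 21.8 RPKM in MONO, 13.8 and 14.5 in TSW, and 17.7 and 19.4 in CO. MONO was again the highest group, but log2 fold changes of -0.57 ± 0.08 and -0.21 ± 0.08 (limma adjusted p = 9.72e-05 and 0.0359) were short of the fold threshold. With voom, ADM was called lower in RPMI8226 TSW.

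ANKRD37 moved in opposite directions. In MM.1S it had 6.56, 7.27 and 6.05 RPKM in MONO, 3.61, 3.11 and 4.83 in TSW, and 3.88, 4.29 and 3.12 in CO. In RPMI8226 it had 0.677 and 0.685 in MONO, 2.005 and 2.26 in TSW, and 2.43 and 2.11 in CO. ANKRD37 thus passed the filter in RPMI8226 only through the co-cultures. Its calls there and its differences between the lines are not independent of the filter. MONO was the highest group in MM.1S and the lowest in RPMI8226, with no overlap in either. The gene fell in MM.1S by 0.67 ± 0.14 (limma adjusted p = 0.00669) and 0.68 ± 0.14 (adjusted p = 0.00547), and rose in RPMI8226 by 0.90 ± 0.11 (adjusted p = 3.32e-05) and 0.96 ± 0.11 (adjusted p = 1.53e-05). The MM.1S calls were lost without TSW 2 (-0.55) or CO 3 (-0.58), and without both MONO 1 and MONO 2 (-0.55 and -0.57). In RPMI8226 voom gave 1.59 and 1.68. Exons of UFSP2 lie opposite those of ANKRD37.

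Of the other targets, NDRG1, P4HA1 and BNIP3L rose in RPMI8226 in both co-cultures. NDRG1 had 15.4 and 15.1 RPKM in MONO, 28.7 and 27.2 in TSW, and 39.7 and 36.9 in CO. P4HA1 had 10.8 and 10.2, 19.7 and 18.3, and 27.7 and 25.8 RPKM in those conditions. BNIP3L had 11.8 and 11.2, 18.8 and 17.5, and 27.0 and 27.7 RPKM. For each of the 3, CO lay above TSW and TSW above MONO in every library, though limma did not call CO against TSW (0.44, 0.47 and 0.57). In TSW their log2 fold changes were 0.83 ± 0.07, 0.80 ± 0.08 and 0.61 ± 0.08, and the BNIP3L call was lost without MONO 2 (0.58) or TSW 1 (0.56). In CO they were 1.27 ± 0.07, 1.27 ± 0.08 and 1.18 ± 0.08 (limma adjusted p = 1.55e-07, 2.68e-07 and 3.57e-07). In MM.1S the same genes had log2 fold changes between -0.26 and 0.32 and were not called. BNIP3 was at 0.086 to 0.958 RPKM in MM.1S, highest in CO (0.875, 0.958 and 0.930), and in RPMI8226 at 1.82 and 1.45 in MONO, 1.16 and 1.30 in TSW, and 2.03 and 2.18 in CO, uncalled against MONO. CA9, a carbonic anhydrase widely used as a hypoxia marker, was at 0 in every library but MM.1S TSW 3 (0.046 RPKM) and RPMI8226 CO 2 (0.160), and 0 read pairs allow up to 0.2 RPKM in the shallowest library.

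HIF binds DNA at a short core, and the promoters of ADM, ANKRD37, ALDOC and P4HA1 are shown as examples of members called both against MONO and between the lines. Each sequence is the 250 bases before the start site from RefSeq (GRCh38.p14), on the gene's strand. The windows are chr11:10304823-10305072 (plus) for ADM, chr4:185396591-185396840 (plus) for ANKRD37, chr17:28576896-28577145 (minus) for ALDOC and chr10:73096867-73097116 (minus) for P4HA1. Capitals mark ACGTG or GCGTG, or their reverse complements CACGT and CACGC, and CACGTG holds ACGTG on both strands.
ADM: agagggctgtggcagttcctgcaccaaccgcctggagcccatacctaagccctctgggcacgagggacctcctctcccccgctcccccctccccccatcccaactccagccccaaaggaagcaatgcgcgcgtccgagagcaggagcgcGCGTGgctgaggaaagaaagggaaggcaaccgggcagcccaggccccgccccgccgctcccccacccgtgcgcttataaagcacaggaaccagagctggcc
ANKRD37: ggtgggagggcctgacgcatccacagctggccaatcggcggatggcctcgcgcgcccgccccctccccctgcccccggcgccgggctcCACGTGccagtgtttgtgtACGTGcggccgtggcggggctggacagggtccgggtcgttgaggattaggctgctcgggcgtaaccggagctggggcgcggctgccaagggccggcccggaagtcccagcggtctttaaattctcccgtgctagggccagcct
ALDOC: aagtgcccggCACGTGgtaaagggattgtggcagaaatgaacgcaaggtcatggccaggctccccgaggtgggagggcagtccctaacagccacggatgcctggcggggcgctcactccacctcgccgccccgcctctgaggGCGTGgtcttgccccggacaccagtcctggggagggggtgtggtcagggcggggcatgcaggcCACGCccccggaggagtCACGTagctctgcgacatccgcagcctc
P4HA1: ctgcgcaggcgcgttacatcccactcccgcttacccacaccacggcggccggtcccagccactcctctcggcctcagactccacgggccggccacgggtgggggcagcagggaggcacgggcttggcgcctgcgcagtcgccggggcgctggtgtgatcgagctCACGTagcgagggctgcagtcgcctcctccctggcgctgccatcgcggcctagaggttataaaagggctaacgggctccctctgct
ADM held 1 match, ANKRD37 3, ALDOC 5 and P4HA1 1, counting each strand of CACGTG. Of 35116 RefSeq promoter windows of this length, 43.2% held at least 1 match and 6.34% held CACGTG. The members had 59 windows for 32 genes, and 35 windows (59.3%) held a match, in 27 genes, while 8 windows (13.6%) held CACGTG. The other 5 genes with a window, ARNT, EGLN3, LDHB, PGAM1 and PKM, held none, and VHL, SLC16A1, BNIP3L and NDRG1 were without a window. Whether matches go with the direction of change was not tested.

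CO against TSW asks what contact with HS5 adds to shared medium. In MM.1S, limma called 0 of 31 members higher (0.374% of all genes) and 0 lower (0.0394%). There, 0 members had an unadjusted p under 0.05 (4.43% of all genes) and 0 were called by voom. In RPMI8226, limma called 0 of 34 higher (1.9% of all genes) and 0 lower (2.39%). There, 19 members had an unadjusted p under 0.05 (55.9%, against 40.4% of all genes) and 15 an adjusted p under 0.05 (44.1%, against 27.6%), of which 10 were higher in CO. Largest among them were PGAM1 at 0.57 ± 0.07, BNIP3L at 0.57 ± 0.08, BNIP3 at 0.48 ± 0.11, P4HA1 at 0.47 ± 0.08 and NDRG1 at 0.44 ± 0.07 on the log2 scale. PFKM at -0.41 ± 0.08 and LDHB at -0.38 ± 0.06 were the largest below 0. Voom called BNIP3 and BNIP3L higher in CO. BNIP3L was called without TSW 1 or without CO 1, and PGAM1 without TSW 1. TSW in RPMI8226 is the condition whose libraries stand apart, and CO libraries hold stromal RNA, so contact cannot be told apart from either.

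Whether the lines differed in their response was tested with limma in a fit of all 15 libraries, over 9397 genes that passed the filter in both lines, 30 members among them. For TSW vs MONO, 5 members had a higher fold change in MM.1S than in RPMI8226 (16.7%, against 16% of all genes) and 6 a lower one (20%, against 10.9%). For CO vs MONO there were 5 (16.7%, against 20.6%) and 7 (23.3%, against 11.3%). For CO vs TSW limma called 0 and 0, where 0.0958% and 0.0426% of all genes were called, and voom was not run on both lines together. There, 7 members had an unadjusted p under 0.05 and 0 an adjusted p under 0.05. The share of all genes under that unadjusted p was not counted. The members with lower fold changes in MM.1S were HIF1A, ALDOC, ANKRD37, ADM, NDRG1 and P4HA1 in TSW, joined by BNIP3L in CO. ADM in TSW, at -0.61, fell short of the fold threshold without MM.1S MONO 2. ANKRD37 differed by -1.56 ± 0.20 and -1.64 ± 0.20 (limma adjusted p = 4.56e-05 and 1.79e-05), and P4HA1 by -1.06 ± 0.14 and -1.39 ± 0.14 (adjusted p = 5.32e-05 and 3.53e-06). HIF1A differed by -1.46 ± 0.38 in CO (limma adjusted p = 0.00597) and by -1.08 ± 0.38 in TSW (adjusted p = 0.0351). The TSW difference of HIF1A was not called when the pseudocount was 0.1, when all genes were kept, or without MM.1S MONO 2 or 3, MM.1S TSW 1 or 3, or any RPMI8226 MONO or TSW library. SLC16A1, PFKM, LDHB and HK2 had higher fold changes in MM.1S in TSW and in CO, with PGAM1 in TSW and PDHA1 in CO. MM.1S MONO 1 was the lowest MONO library for HK2 (12.8 RPKM, against 21.6 and 21.5) and PFKM (30.9, against 39.7 and 36.7). Without it, the HK2 differences and the PFKM difference in TSW fell short of the fold threshold. SLC16A1 differed by 0.87 ± 0.16 and 0.98 ± 0.16 (limma adjusted p = 0.000669 and 0.000178). With median-of-ratios scaling 2 of these calls were left in TSW (PGAM1 and SLC16A1) and 3 in CO (PFKM, LDHB and SLC16A1).

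**Figure D5:**
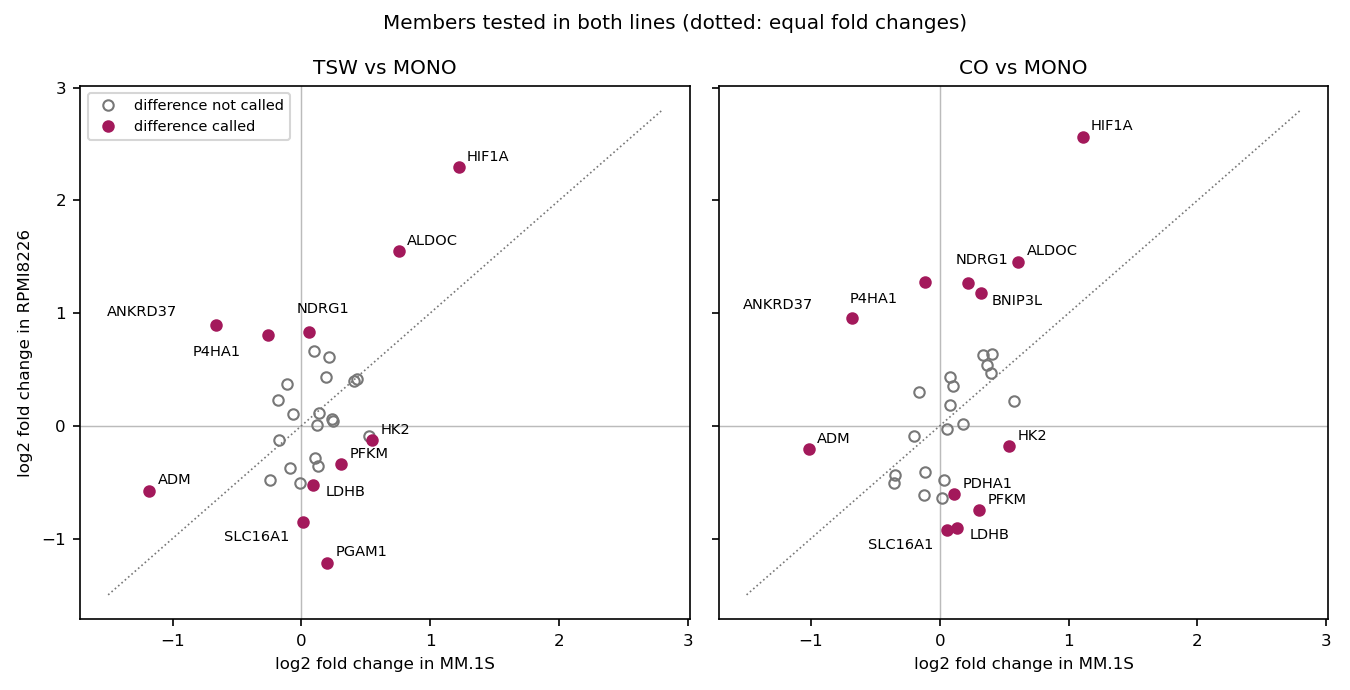
Log2 fold change of RPKM + 1 in MM.1S (horizontal) and RPMI8226 (vertical) for the 30 members tested in both lines, TSW vs MONO on the left and CO vs MONO on the right. Filled points are members whose fold changes were called different between the lines, and the dotted line marks equal fold changes. ANKRD37 sits at -0.67 and 0.90 on the left, and HIF1A at 1.11 and 2.57 on the right.

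Other genes of these pathways, from lists that hold no member, give the setting. Of 36 further hypoxia-inducible genes, 35 of them in the tables, 25 were tested in MM.1S and 23 in RPMI8226. In MM.1S 5 were called higher (20%, against 6.48% of all genes) and 1 lower (4.0%, against 4.16%) in TSW, and 6 higher (24.0%, against 7.13%) and 2 lower (8.0%, against 4.65%) in CO. In RPMI8226 7 were higher (30.4%, against 14.5%) and 3 lower (13.0%, against 17.9%) in TSW, and 11 higher (47.8%, against 16.4%) and 4 lower (17.4%, against 22.9%) in CO. The higher counts of RPMI8226 include LOX, which is also among the stromal markers. The higher count of MM.1S CO includes LOXL2, the only gene of this list called in CO vs TSW (1.16 ± 0.14, limma adjusted p = 0.00175). LOXL2 was at 0.88 RPKM or less in MONO and TSW and 2.43 to 3.27 in CO. It thus passed the filter only through CO, and its calls are not independent of the filter. DDIT4, an inhibitor of mTORC1 induced by many stresses, rose most, from 18.6, 20.4 and 15.5 RPKM in MM.1S MONO to 128, 114 and 119 in TSW, and from 39.9 and 43.3 in RPMI8226 MONO to 458 and 428 in TSW. All TSW libraries lay above MONO, with log2 fold changes of 2.66 ± 0.12 and 3.38 ± 0.07 (limma adjusted p = 1.24e-07 and 1.86e-10). BHLHE40, a transcriptional repressor, rose by 2.46 ± 0.09 in MM.1S TSW and 3.16 ± 0.07 in RPMI8226 TSW. VEGFA, the angiogenic growth factor, rose in TSW by 0.93 ± 0.08 in MM.1S and 0.71 in RPMI8226. SLC2A3, a glucose transporter, rose in MM.1S TSW by 1.72 ± 0.09 and was below the filter in RPMI8226. CXCR4, the chemokine receptor that holds myeloma cells in marrow, fell in TSW by 1.32 ± 0.10 in MM.1S and 0.69 ± 0.09 in RPMI8226, and HILPDA, a lipid droplet protein, fell in RPMI8226 TSW by 1.36 ± 0.11.

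Of 36 other glycolysis and pyruvate genes, 2 of 23 tested rose in MM.1S in each co-culture, PDP2, a phosphatase that switches pyruvate dehydrogenase on, and PCK2, mitochondrial PEP carboxykinase. Both rose in RPMI8226 too, where 3 of 24 rose and 2 fell in TSW, and 3 rose and 4 fell in CO. The shares higher, 8.7% in MM.1S and 12.5% in RPMI8226, lay near those of all genes (6.48% and 7.13%, and 14.5% and 16.4%), and the shares lower, 0%, 8.33% and 16.7%, lay below theirs. PCK2 rose in TSW by 1.86 ± 0.10 in MM.1S and 2.11 ± 0.11 in RPMI8226, and PDP2 by 0.75 ± 0.09 and 1.01 ± 0.07. Serine synthesis, which branches from glycolysis, had 4 of 5 genes higher in MM.1S TSW and 3 in CO, and in RPMI8226 3 higher and 1 lower in TSW, and 2 and 1 in CO. The shares higher were 80% and 60% in MM.1S, and 60% and 40% in RPMI8226, above those of all genes, though of 5 genes only. PHGDH, its first enzyme, rose in TSW by 1.46 ± 0.12 in MM.1S and 2.26 ± 0.17 in RPMI8226 (limma adjusted p = 7.31e-06 and 1.06e-06). In the pentose phosphate pathway 2 of 7 genes fell in each co-culture of MM.1S, and 2 and 3 in RPMI8226, RPIA among them in each (28.6% in MM.1S, and 28.6% and 42.9% in RPMI8226, against 4.16%, 4.65%, 17.9% and 22.9% of all genes). Of 16 TCA cycle genes, limma called 0 in MM.1S against MONO, with 4 at an adjusted p under 0.05 in TSW and 1 in CO, and in RPMI8226 3 fell in TSW and 3 in CO, with FH, fumarase, at -0.69 ± 0.06 and -1.10 ± 0.06. That is 18.8% of the TCA genes, near the 17.9% and 22.9% of all genes.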

How the data were processed

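Poly-A RNA of sorted MM.1S and RPMI8226 cells was sequenced in pairs. Per the submitters' notes the authors aligned reads to hg38 with Subread, counted them with featureCounts and deposited log2 values of RPKM + 1, with 0.0001 added, which was subtracted here. Read pairs were recovered from the spacing of the deposited values, and libraries held 9008977 to 19050772 of them on genes. Each line was fitted with limma 3.58.1 (trend) in R 4.3.3 with its 3 conditions in 1 fit, and both lines together for differences between lines. Python 3.11.15, pandas 2.3.3, numpy 2.4.6 and matplotlib 3.10.9 served tables and figures. Members and lists were chosen with earlier results of these data known. All members may be named, and of other lists the called genes with the 5 largest fold changes per comparison and those encoding oxygen sensors or HIF subunits. RPS14P3, trnN and the per-library levels of members without a call were chosen after their values were seen. Alternatives were pseudocount, filter, scaling, quantile normalization, voom, GC and length correction, replicate block, fits of single comparisons, no fold threshold and each library left out, with 2 more added after the data were seen. The scripts were tested on simulated data.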

Additional observations from a re-analysis of the deposited data

Results flagged for a closer look

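Each value here is the log2 fold change in MM.1S minus that in RPMI8226, listed because limma called the lines different. For TSW vs MONO the values above 0 were 0.6759 for HK2, 0.6493 for PFKM, 1.415 for PGAM1, 0.6208 for LDHB and 0.8681 for SLC16A1. Those below 0 were -1.077 for HIF1A, -0.7948 for ALDOC, -1.563 for ANKRD37, -0.6074 for ADM, -0.7711 for NDRG1 and -1.063 for P4HA1. For CO vs MONO the values above 0 were 0.7205 for HK2, 1.053 for PFKM, 1.04 for LDHB, 0.72 for PDHA1 and 0.9805 for SLC16A1. Those below 0 were -1.457 for HIF1A, -0.8477 for ALDOC, -0.859 for BNIP3L, -1.644 for ANKRD37, -0.809 for ADM, -1.052 for NDRG1 and -1.389 for P4HA1. Some of these calls hang on single libraries. Without MM.1S MONO 1, HK2 in both comparisons and PFKM in TSW vs MONO fell short of the fold threshold. ADM in TSW vs MONO fell short of it without MM.1S MONO 2.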

How the results depend on the processing

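The 35 called member results had 584 alternative values. Of these, 560 kept direction and call, 24 lost the call and 0 reversed, and 24 results lost no call among them. Not all of these values could fail. Dropping the fold threshold keeps every call by construction, and leaving out a library outside the compared conditions leaves the fold change as it was. Calls of genes that a filter removed, such as ANKRD37 at a mean RPKM of at least 5, are not among the values. Without a fold threshold, members higher and lower numbered 5 and 2 (TSW) and 6 and 2 (CO) in MM.1S. In RPMI8226 they numbered 14 and 10 (TSW), 16 and 11 (CO), and 10 and 5 (CO vs TSW). With both directions together, these are 22.6% and 25.8% of the members in MM.1S, against 27.3% and 31.3% of all genes. In RPMI8226 they are 70.6%, 79.4% and 44.1%, against 67.1%, 71.9% and 27.6%. With pseudogene-bearing members left out of the counts, fewer by construction, MM.1S had 1 higher in TSW and 1 in CO, and RPMI8226 0 lower in TSW and 1 in CO. At a mean RPKM of at least 5, which leaves ANKRD37 out, MM.1S had 1 lower in each, and 1 in each without MONO 1 and 2. Without an expression filter MM.1S CO had 5 higher. In RPMI8226, quantile normalization gave 4 lower in TSW and 3 in CO, median-of-ratios scaling 3 lower in CO, and GC and length correction 2 lower in CO, moving the median of all genes there from -0.09 to 0.01. Of the 10319 tested genes, those lower in CO went from 2363 to 2095, 1929 and 1768 under these settings, in that order. Those lower in TSW went from 1852 to 1699 with quantile normalization. For CO vs TSW in RPMI8226, 2 were higher with a pseudocount of 0.1, voom, median-of-ratios scaling or quantile normalization, and 3 with GC and length correction. All genes called higher there numbered 196 before, 322 with voom, 232 with median-of-ratios scaling, 261 with quantile normalization and 191 with GC and length correction. Median-of-ratios scaling left 2 (TSW) and 3 (CO) line differences above. Leaving out single libraries gave, in MM.1S, 2 to 4 higher and 1 to 2 lower in TSW, 2 to 3 and 1 to 2 in CO, and 0 in CO vs TSW. In RPMI8226 it gave 8 to 9 higher and 2 to 4 lower in TSW, 9 to 11 and 5 to 6 in CO, and 0 to 2 and 0 in CO vs TSW. Line differences ranged from 3 to 6 above and 4 to 6 below in TSW, 4 to 6 above and 7 below in CO, and 0 above and 0 to 1 below in CO vs TSW. Where construction does not show it, the cause was not tested. Replicate numbers do not establish pairs (correlations of deviations -0.38 to 0.286 in MM.1S, 0.164 to 0.271 in RPMI8226), and the replicate block ended 0 calls. Leaving out an RPMI8226 library leaves 1 in its condition, assumed to vary like the others.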
